A study of Mus musculus with 5 samples.

Results

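Expression in the gut of mice given aspirin was set against that of mice not given it, over all 5 arrays of the study. Male ddY mice, an outbred laboratory stock, were 5 weeks old and received a pair of oral administrations 0.5 hours apart. The gut was taken 4 hours after the last one, and total RNA of 1 treatment was hybridised to each Affymetrix Mouse Gene 1.0 ST array. The 3 arrays with aspirin were GA+Asp (gum arabic, the vehicle, then aspirin), Tep+Asp (teprenone, a mucosal protective drug, then aspirin) and LG21+Asp (Lactobacillus gasseri OLL2716, then aspirin). The 2 arrays without aspirin were GA+GA (gum arabic given both times) and LG21+GA (the Lactobacillus strain, then gum arabic). All 5 groups thus received gum arabic or a pretreatment first and gum arabic or aspirin next. Each gene was represented by its brightest probe set naming that gene alone, and the mean of the 2 arrays without aspirin was subtracted from the mean of the 3 with it. There was 1 array per treatment, so arrays with different pretreatments stood in for replicates, and the spread between them holds the pretreatments too. The sources used here do not say whether an array carried RNA of a single mouse or of several.

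Aspirin acetylates the cyclooxygenases and so blocks the first step from arachidonic acid to the prostaglandins. In the stomach, prostaglandin E2 and prostacyclin sustain mucus and bicarbonate secretion, mucosal blood flow and restraint on acid. The genes of interest here lay outside the liver and keratinocyte programmes, since transcripts of those cells differed between arrays in large blocks. The boundary was set by a list for each, of hepatocyte and of squamous epithelial genes.

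The tissue label is gut, and the values were those of glandular stomach with other tissues beside it. The mean log2 level of the surface cell markers Muc5ac, Tff1, Gkn1 and Gkn2 ran from 13.34 to 13.37 over the 5 arrays, and that of the proton pump genes Atp4a and Atp4b from 13.31 to 13.33. Of 4 intestinal markers, only Vil1 passed the filter described below, and Sis, the sucrase of enterocytes, lay at 4.65 to 4.97, about the level of Xist (4.88 to 4.91), which male tissue does not express. Hepatocyte markers had a mean level of 10.79 in GA+GA and 10.31 in LG21+GA, against 7.67 in GA+Asp, 8.69 in Tep+Asp and 9.60 in LG21+Asp. Of these 8 markers 6 were lower on all 3 aspirin arrays, Apoa1 was higher by 0.03 and Ttr overlapped. Keratinocyte markers separated LG21+Asp (7.86) from Tep+Asp (9.72) rather than aspirin from no aspirin, with 0 of 8 apart. Skeletal muscle markers were highest in GA+Asp (7.65, against 6.85 to 6.92 elsewhere). In tissue RNA, fewer cells of a type and less RNA per cell cannot be told apart. Array medians ran from 6.95 to 6.98, and Pearson's r between arrays over probe sets from 0.992 to 0.997.

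No gene differed past the threshold of the model. Counts were made among 9969 genes whose mean exceeded 7.41 on the log2 scale, the median of 19938 genes. Limma called 0 of them (0.0%) at a Benjamini-Hochberg adjusted p under 0.05. The smallest adjusted p was 0.735, while 430 genes had an unadjusted p under 0.05, 266 higher and 164 lower with aspirin. With robust and trended variances limma again called 0, with 409 at an unadjusted p under 0.05. Without the LG21+GA array it called 82 genes, 60 higher and 22 lower, which rests on a lone control array assumed to vary like the aspirin arrays. Their median absolute difference was 0.12, 2 were at least 1.2-fold apart, and 8 were apart in all 5 arrays. An exact permutation of 3 arrays against 2 has 10 splits and cannot give a p below 0.1. The genes below are therefore described by their values, and none is called changed. All genes named below have a limma adjusted p of 0.735 or more where they were tested.

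In 865 genes (8.68%) all 3 aspirin arrays lay strictly above both others, and in 379 (3.8%) strictly below. Of these genes 69.5% were higher, a share that was 55.8% after quantile normalization and 38.2% after cyclic loess. The balance of direction among these mostly small differences thus moved with the normalization. At a difference of at least 1.2-fold, which is 0.26 on the log2 scale, 12 genes were higher (0.12%) and 61 lower (0.612%). These counts were 12 and 65 after quantile normalization and 12 and 66 after cyclic loess. All 12 higher genes were outside the liver and keratinocyte lists. The hepatocyte list held 41 of the 61 lower genes and the squamous list 1, Ly6d, which leaves 19. The gene nearest inside the 1.2-fold limit was AA467197 (-0.27), and Apoe (-0.26) and Nusap1 (-0.26) lay just outside. In 100 higher and 46 lower genes, the gap between the groups exceeded the range within either group, and all 100 and 43 of the 46 were outside both programmes.

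**Figure D1:**
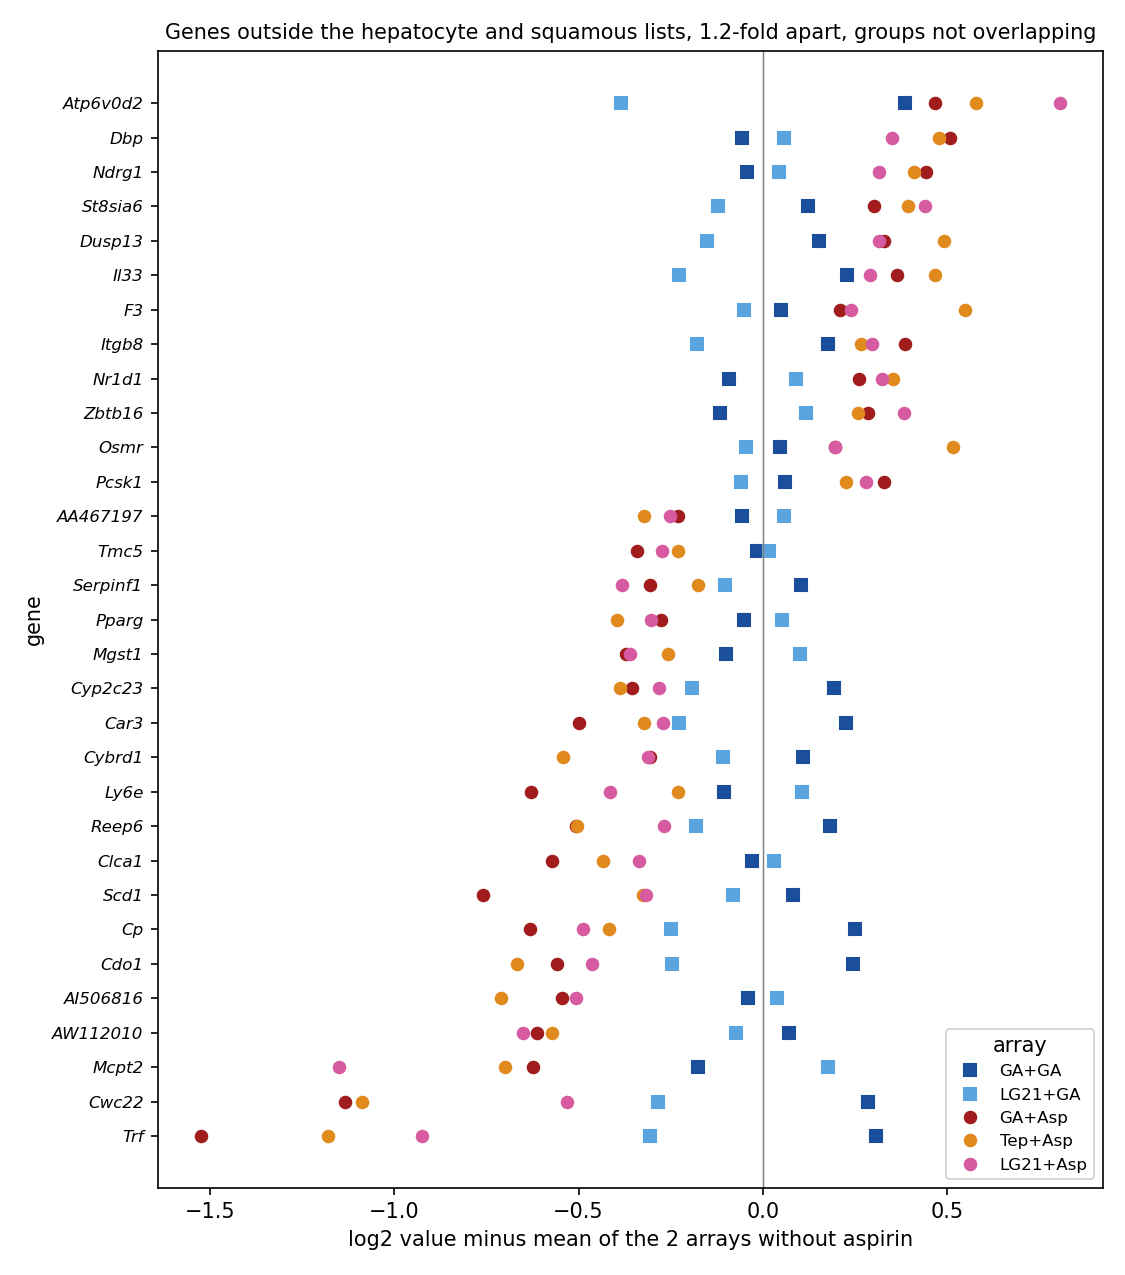
The 12 higher and 19 lower genes outside the hepatocyte and squamous lists. Each point is 1 array, as the log2 value minus the mean of the 2 arrays without aspirin (squares), and aspirin arrays are circles. In Dbp, Ndrg1, AW112010 and AI506816 the circles stand clear of a narrow pair of squares. In Atp6v0d2, Il33 and Itgb8 the GA+GA square lies close to the circles.

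Dbp encodes a transcription factor whose daily rhythm is set by the circadian clock. It stood at 8.68 in GA+GA and 8.79 in LG21+GA, and at 9.24 in GA+Asp, 9.21 in Tep+Asp and 9.09 in LG21+Asp. Every aspirin array was above both others, by more than either group's own range. The difference was 0.45 (SE 0.067, 3 arrays against 2), or 1.36-fold. Ndrg1, a gene raised by hypoxia and other stresses, was at 11.16 and 11.24 without aspirin and at 11.64, 11.61 and 11.51 with it. Its difference was 0.39 (SE 0.053), and both groups were again narrow. Pcsk1, the convertase that cuts prohormones in endocrine cells, stood at 7.86 and 7.74 against 8.12, 8.02 and 8.08. That difference of 0.28 (SE 0.052) was the smallest among the 12, and its groups did not overlap either. These 3 were the only genes of the 12 whose gap was wider than the range within either group.

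In several of the other higher genes 1 array without aspirin carried much of the difference. Atp6v0d2, a subunit of the vacuolar proton pump, had the highest difference, 0.62 (SE 0.278). It stood at 8.69 in GA+GA and 7.92 in LG21+GA, against 8.77, 8.88 and 9.11. LG21+GA was far below the other arrays, and the difference was 0.23 without it and 1.00 without GA+GA. Il33, an epithelial alarm cytokine, stood at 10.43 and 9.97 against 10.56, 10.66 and 10.49. Its difference was 0.37 (SE 0.162), with 0.15 left without LG21+GA and 0.60 without GA+GA. Itgb8, an integrin subunit that activates latent TGF-beta, stood at 7.83 and 7.47 against 8.04, 7.92 and 7.95, a difference of 0.32, which was 0.14 without LG21+GA and 0.49 without GA+GA. In each of these genes GA+GA was just under the lowest aspirin array. The phosphatase gene Dusp13 differed by 0.38 and, without LG21+GA, by 0.23.

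The remaining higher genes varied in where the spread lay. St8sia6, a sialyltransferase, stood at 9.26 and 9.01 against 9.44, 9.53 and 9.58, with a difference of 0.38 (SE 0.093). LG21+GA was its lowest array too, and the difference was 0.26 without it and 0.50 without GA+GA. Tep+Asp was the top array for F3, which encodes tissue factor, the starter of coagulation: 9.02 and 8.92 without aspirin, and 9.18, 9.52 and 9.21 with it. The same held for Osmr, a receptor subunit for oncostatin M, at 8.25 and 8.16 against 8.40, 8.72 and 8.40. The differences were 0.33 and 0.30, and that of Osmr was 0.20 without Tep+Asp. Timp3, an inhibitor of matrix metalloproteinases, and Scn7a, a sodium channel gene of glia and neurons, followed with differences of 0.25 each. The transporter gene Mfsd7a came next at 0.24, or 0.15 without GA+Asp. These 3 lay just under 1.2-fold.

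The circadian clock is a loop in which Clock and Arntl (BMAL1) switch on the Per, Cry and Nr1d genes, whose products shut them down again. Outputs such as Dbp, Tef and Hlf follow the same rhythm, and Arntl peaks at the opposite time of day. Of the clock repressors and outputs 12 passed the filter. The groups were apart in 9, all higher with aspirin and 0 lower, against 8.68% of all filtered genes, and all 12 differences were above 0, with a median of 0.20 beside 0.01 over all filtered genes. The REV-ERB gene Nr1d1 stood at 10.19 and 10.37 without aspirin and at 10.54, 10.63 and 10.60 with it, a difference of 0.31 (SE 0.068). Nr1d2 differed by 0.20, the period genes Per2 and Per3 by 0.21 each, and Tef by 0.21. The deubiquitinase Usp2 (0.19), Wee1, the kinase that holds cells before mitosis (0.15), and Hlf (0.15) were also apart. Per1 was not: it stood at 8.61 in GA+GA, 8.82 in both LG21 arrays, 8.87 in GA+Asp and 8.91 in Tep+Asp. That overlap is an exact tie, and after quantile normalization or cyclic loess its groups were apart, higher with aspirin. Below the filter, Ciart had 6.91 and 7.27 against 7.36, 7.57 and 7.40, and Bhlhe41 had 6.10 and 6.28 against 6.69, 6.60 and 6.39.

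Arntl ran the other way. It stood at 7.95 and 7.91 without aspirin and at 7.70, 7.61 and 7.75 with it. The groups were apart, with a difference of -0.24 (SE 0.050) and a gap wider than either range. Its partner Clock overlapped (-0.04), and Rora, which activates Arntl, was slightly higher (0.06). The 12 repressors and outputs had median levels of 8.56 (GA+GA) and 8.71 (LG21+GA) without aspirin, and of 8.80 (GA+Asp), 8.77 (Tep+Asp) and 8.75 (LG21+Asp) with it, so the LG21+GA array lay between GA+GA and the aspirin arrays. Without GA+GA the median difference was 0.08 and 10 of 12 genes were apart, all higher. Without LG21+GA it was 0.31, with 11 apart, all higher. Among all 9969 filtered genes 2129 were higher without GA+GA and 3006 without LG21+GA, against 865 with every array kept. Genes thus came apart more readily once a control array was left out. The sources used here do not give the hour of day at collection.

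The bases before the start of these genes were read to show where known clock elements lie. The E-box CACGTG, the same on both strands, is bound by Clock and Arntl. The D-box, searched as TTATGTAA or TTACGTAA on both strands, is bound by Dbp, Tef and Hlf. RefSeq promoters of assembly GRCm38.p6 were given for 14 of 18 clock genes, with 18 starts among them, and the 250 bases upstream of each were searched. The E-box was found in 5 genes and the D-box in 1. Of all 32851 promoters of that length 6.02% held the E-box and 0.931% the D-box, and the letters ACGT are common to CACGTG and TTACGTAA. No clock gene held both motifs. The E-box genes were Ciart, Tef, Per1, Cry1 and Bhlhe41. Dbp, Nr1d1 and Arntl had neither in this window. The 3 printed are the gene with most E-boxes, the gene with D-boxes, and an output gene with 1 E-box before each of its starts, the first of which is shown, each 5′ to 3′ with the motifs in capitals. Ciart lies at chr3:95882229-95882478 on the minus strand, with E-boxes at -116, -58 and -44 from the start. Per3 lies at chr4:151044666-151044915 on the minus strand, with D-boxes at -205 and -158. Tef lies at chr15:81802423-81802672 on the plus strand, with an E-box at -127.
Ciart: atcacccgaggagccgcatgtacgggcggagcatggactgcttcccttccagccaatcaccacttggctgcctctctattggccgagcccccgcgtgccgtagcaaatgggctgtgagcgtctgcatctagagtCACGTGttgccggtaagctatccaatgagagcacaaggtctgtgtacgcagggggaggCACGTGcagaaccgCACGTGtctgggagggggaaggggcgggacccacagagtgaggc
Per3: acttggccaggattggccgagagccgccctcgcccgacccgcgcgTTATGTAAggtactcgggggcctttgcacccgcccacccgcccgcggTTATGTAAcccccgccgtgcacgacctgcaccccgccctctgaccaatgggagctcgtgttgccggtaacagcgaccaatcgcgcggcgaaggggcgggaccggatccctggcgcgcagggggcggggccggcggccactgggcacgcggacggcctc
Tef: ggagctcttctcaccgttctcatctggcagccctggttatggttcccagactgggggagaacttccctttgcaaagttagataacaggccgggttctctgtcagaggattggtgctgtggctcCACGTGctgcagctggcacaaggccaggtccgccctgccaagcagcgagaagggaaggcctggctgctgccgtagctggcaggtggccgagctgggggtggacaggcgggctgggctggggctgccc

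**Figure D2:**
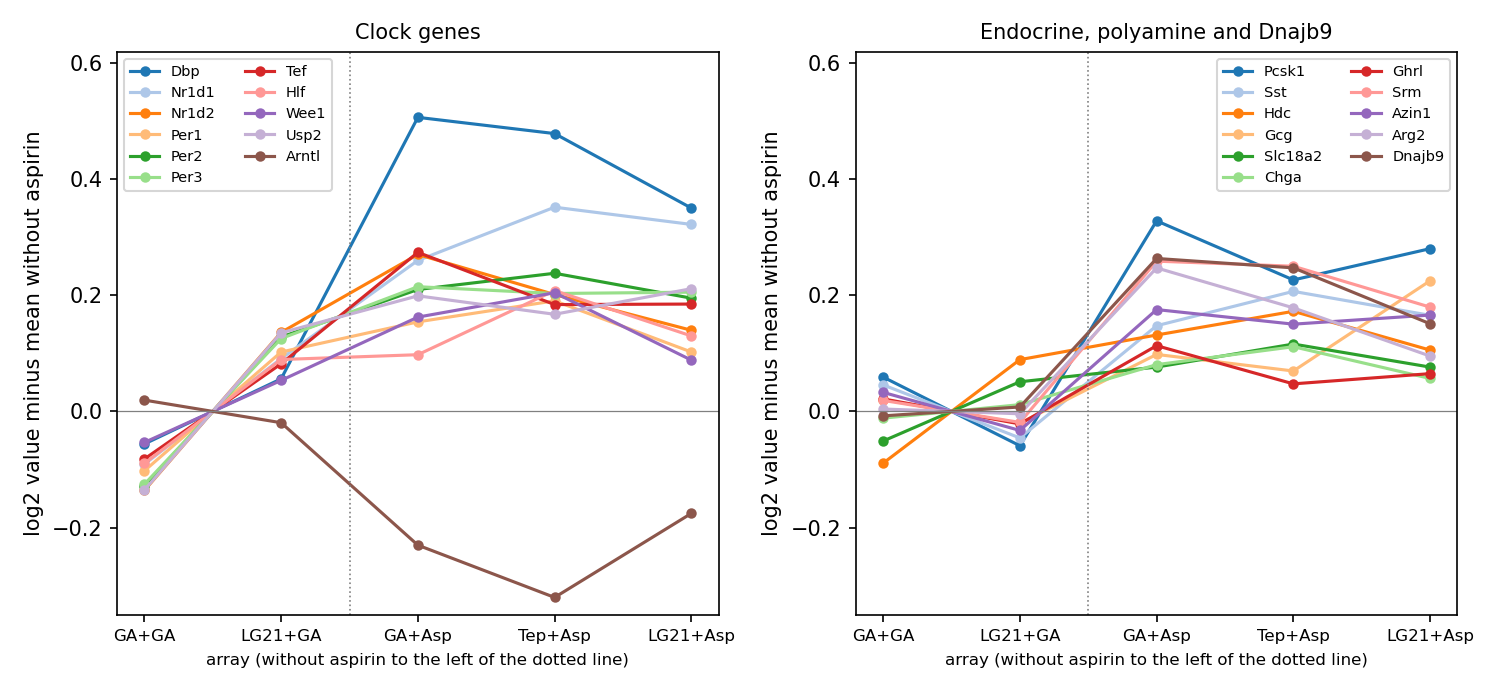
Log2 value on each array minus the mean of the 2 arrays without aspirin, for clock genes (left) and for endocrine and polyamine genes with Dnajb9 (right). Lines join the values of 1 gene and stand for no order of the arrays. Dbp reaches 9.24 in GA+Asp from 8.68 in GA+GA, Arntl alone among the clock genes drawn lies below 0 on the aspirin arrays, and most clock genes are higher in LG21+GA than in GA+GA.

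Endocrine cells of the stomach release ghrelin, somatostatin and histamine, which set appetite and acid secretion. Of 11 endocrine genes that passed the filter 8 were apart and higher with aspirin (0 lower), with a median of 0.09, while 8.68% of all filtered genes were higher. Sst, which encodes somatostatin, the brake on acid, stood at 12.01 and 11.92 against 12.11, 12.17 and 12.13. Its difference was 0.17 (SE 0.037), and the gap exceeded both ranges. Hdc, the enzyme that makes histamine, had 9.51 and 9.69 against 9.74, 9.78 and 9.71, so LG21+GA lay just under the lowest aspirin array. Chga, the granule protein of endocrine cells, differed by 0.08 (SE 0.020) and Slc18a2, the vesicle transporter of histamine, by 0.09. The ghrelin gene Ghrl differed by 0.08, Mboat4, which acylates ghrelin, by 0.05 and Gcg, which encodes glucagon, by 0.13. Pcsk1 is the eighth. Gast, the gastrin gene of the antrum, did not pass the filter and overlapped, at 7.20 and 7.10 against 7.10, 6.99 and 7.28. With each array left out in turn, the median stayed between 0.07 and 0.10, and after cyclic loess 7 of the 11 genes were apart.

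Among 7 polyamine genes outside the liver list 3 were apart and higher, with 0 lower and a median of 0.10, beside 8.68% higher of all filtered genes. With GA+GA or LG21+GA left out the count was 5. Over all filtered genes 2129 and 3006 were higher in that order, against 865 with every array kept. Srm, spermidine synthase, stood at 9.66 and 9.62 against 9.90, 9.89 and 9.82, a difference of 0.23 (SE 0.032). Azin1, which frees ornithine decarboxylase from its inhibitor, differed by 0.16 (SE 0.024) and Arg2, the mitochondrial arginase that yields ornithine, by 0.17 (SE 0.051). In all 3 genes the arrays without aspirin lay close together and below every aspirin array. The cytosolic arginase Arg1, a hepatocyte gene, differed by -0.86 instead. Of 27 genes of the unfolded protein and integrated stress response 5 were higher and 0 lower, with a median of 0.03, against 8.68% and 3.8% of all filtered genes. The count was 11 higher without GA+GA, 14 higher and 5 lower without LG21+GA, and 9 higher without LG21+Asp, where the median was 0.05. Over all filtered genes it was 2129 higher, 3006 higher and 1356 lower, and 1461 higher in the same order. The highest difference of the list over all 5 arrays, 0.28, was in a gene whose groups overlapped. Among the 5 genes that were apart Dnajb9, a chaperone of the endoplasmic reticulum, led at 9.96 and 9.97 against 10.23, 10.21 and 10.11. Its difference was 0.22 (SE 0.041). Manf (0.09), Syvn1 (0.07), Ppp1r15a (0.05) and Xbp1 (0.04) were the others. The larger count of higher genes was thus made up mostly of differences under 0.1.

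Glucocorticoid-responsive genes outside the liver had 3 of 16 higher and 0 lower, with a median of 0.06, beside 8.68% higher of all filtered genes. Zbtb16, a zinc finger transcription factor that hormone treatment induces, stood at 8.60 and 8.83 against 9.002, 8.98 and 9.10, a difference of 0.31 (SE 0.088) that was 0.19 without GA+GA. Klf9, another such factor, had 10.14 and 10.15 against 10.31, 10.27 and 10.25, a difference of 0.13 (SE 0.020). Pdk4, which restrains glucose oxidation, differed by 0.09. Klf9 showed the narrower groups, and the difference in Zbtb16 was the larger. Against the same 8.68%, 3 of 15 p53 targets were higher and 0 lower: Gadd45b (0.16, SE 0.024), Trp53inp1 (0.16) and Mdm2 (0.07). Of 19 glycolysis and hypoxia genes Pfkfb3 alone was apart (0.22), and Ndrg1 is described above.

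The prostaglandin pathway itself showed small differences. Ptgs2, the inducible cyclooxygenase, stood at 7.74 and 7.93 without aspirin and at 7.91, 8.24 and 8.18 with it. GA+Asp lay below LG21+GA, so the groups overlapped, and the difference was 0.27 (SE 0.133), or 0.18 without GA+GA. Ptgs1, the constitutive enzyme, has no probe set naming it alone and was not analysed here. Hpgd, which inactivates prostaglandins, was at 12.01 on both arrays without aspirin and at 11.96, 11.95 and 11.96 with it. That difference of -0.06 (SE 0.008) was small and separated the groups. Ptgis, prostacyclin synthase, differed by 0.11 (SE 0.035) and the prostaglandin transporter Slco2a1 by 0.07 (SE 0.016). Among 15 genes of synthesis and breakdown 2 were higher and 1 lower, with a median of -0.01, which is near the 8.68% and 3.8% of all filtered genes. Among 4 receptor genes only Ptger1, a prostaglandin E2 receptor, was apart (0.13).

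Among the 19 lower genes, those with narrow groups were few. AW112010, a locus known by its clone name, stood at 9.35 and 9.20 without aspirin and at 8.66, 8.70 and 8.62 with it. Its difference was -0.61 (SE 0.054), and the gap of 0.50 was more than the range of either group. AI506816, likewise a clone name, stood at 10.14 and 10.22 against 9.63, 9.47 and 9.67, a difference of -0.59 (SE 0.077). Both were named after their values were seen, as were Tmc5, a transmembrane channel-like gene, and AA467197. Tmc5 had 7.81 and 7.84 against 7.48, 7.60 and 7.55, a difference of -0.28 (SE 0.039). Clca1, a secreted protein of goblet cells, stood at 8.66 and 8.72 against 8.12, 8.26 and 8.36. The groups were clear of each other, with a difference of -0.45 (SE 0.080). Pparg, a nuclear receptor that governs fat storage, stood at 10.89 and 10.99 against 10.66, 10.54 and 10.63, a difference of -0.33 (SE 0.053). These genes did not follow the array order of the liver transcripts given below.

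Mcpt2, a protease of mucosal mast cells, stood at 8.91 in GA+GA and 9.26 in LG21+GA, and at 8.46, 8.39 and 7.94 with aspirin. The difference was -0.82 (SE 0.222), and the groups did not overlap. Its neighbour Mcpt1 did not pass the filter and stood at 7.48 and 8.45 against 6.77, 7.24 and 6.40, a difference of -1.16. LG21+GA was the highest and LG21+Asp the lowest array in both. Cpa3, the mast cell carboxypeptidase, had the same highest and lowest arrays, but its groups overlapped (8.73 and 8.84 against 8.63, 8.80 and 8.33). Below the filter Ms4a2, a chain of the IgE receptor, was lower too, at 5.22 and 5.31 against 5.10, 5.13 and 4.92. Kit, the stem cell factor receptor, was higher by 0.07. Of 3 mast cell genes past the filter 1 was lower and 1 higher, beside 3.8% lower and 8.68% higher of all filtered genes. Another 12 mast cell genes did not pass, of which 2 were lower and 0 higher. The 4 mast cell markers had a mean level of 8.66 and 9.04 without aspirin and of 8.39, 8.51 and 8.07 with it. Probe sets of Mcpt1 and Mcpt2 may share signal with close relatives of that protease family.

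Ly6e, a small membrane-anchored protein induced by interferon, stood at 11.52 and 11.73 against 10.99, 11.39 and 11.21, a difference of -0.42 (SE 0.149). Cybrd1, a ferric reductase of the gut surface, had 11.03 and 10.81 against 10.61, 10.37 and 10.60, a difference of -0.39 (SE 0.114). Both were clear of overlap but varied within groups. Mgst1, a microsomal glutathione transferase, differed by -0.33 (SE 0.078). Serpinf1, an inhibitor of vessel growth, differed by -0.29, or by -0.19 without GA+GA. Of 24 NRF2 and metallothionein genes 4 were lower, against 3.8% of all filtered genes, and 2 higher, a share near the 8.68% of all. Nqo1, a quinone reductase, led the lower ones at -0.17. The heme oxygenase Hmox1 differed by 0.18.

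The other lower genes ranked by array as the hepatocyte transcripts did, or were genes that liver also makes. Of the 41 lower hepatocyte genes 31 had their highest value in GA+GA, then LG21+GA, and among the aspirin arrays the highest in LG21+Asp and the lowest in GA+Asp. Of the 19 lower genes outside the lists 5 had that order: Trf, Cwc22, Scd1, Reep6 and Car3. Trf encodes transferrin, the iron carrier of plasma, and stood at 10.86 and 10.25 against 9.03, 9.37 and 9.63. Its difference of -1.21 (SE 0.284), or 2.31-fold, was the largest among filtered genes outside the lists. Car3, a carbonic anhydrase (-0.36), Cdo1, cysteine dioxygenase (-0.56), Cp, the plasma ferroxidase ceruloplasmin (-0.51), and Cyp2c23, a cytochrome P450 (-0.34), are known liver genes too, listed as such after their values were seen. Without GA+GA these 4 differed by -0.14, -0.32, -0.26 and -0.15 in that order, and without LG21+GA Car3 differed by -0.59 and Cyp2c23 by -0.54. Taking out Trf and these 4 leaves 14 lower genes, among them Cwc22, Scd1 and Reep6, which had the array order of the hepatocyte genes. Cwc22, a splicing factor, stood at 9.79 and 9.22 against 8.37, 8.42 and 8.97, a difference of -0.92 (SE 0.290). Of its 8 probe sets all but 1 hold identical values, so they amount to a pair of measurements, which differed by -0.92 and -0.56. Scd1, the desaturase that makes oleate, stood at 9.50 and 9.34 against 8.66, 9.09 and 9.10, a difference of -0.47 (SE 0.175). Reep6, a shaper of the endoplasmic reticulum, differed by -0.43, and by -0.24 without GA+GA. The part of liver RNA in these differences was not tested, and the mean level of the 8 hepatocyte markers was 10.79 in GA+GA and 7.67 in GA+Asp, as given above.

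**Figure D3:**
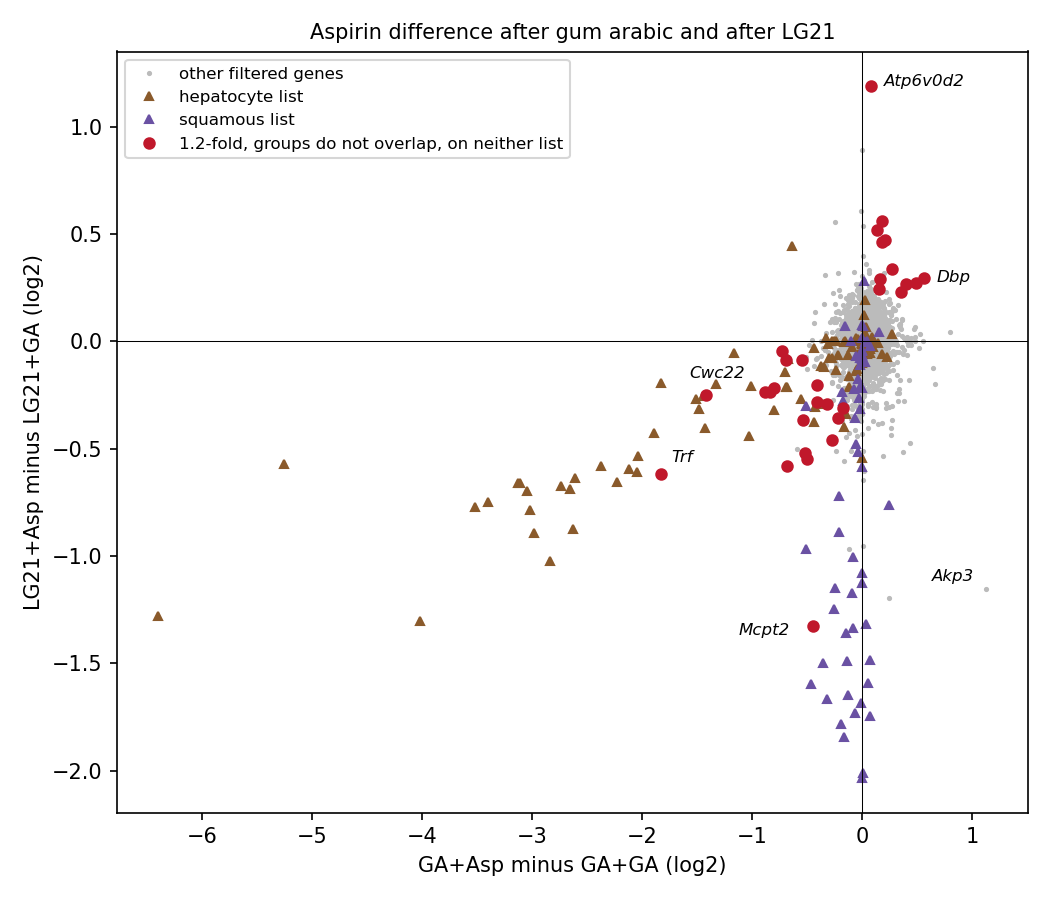
Each point is a filtered gene, with GA+Asp minus GA+GA on the horizontal axis and LG21+Asp minus LG21+GA on the vertical axis, both log2. Hepatocyte genes (brown) spread along the horizontal axis and squamous genes (violet) down the vertical one. Dbp lies above 0 on both, Atp6v0d2 on the vertical axis mainly (1.19 against 0.08), and Akp3 on opposite sides of 0 (1.12 and -1.15).

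Genes that dividing cells use were next. Of 21 cell cycle genes 6 were lower and 0 higher, against 3.8% lower of all filtered genes, with a median of -0.09. Top2a, the topoisomerase of dividing cells, stood at 8.46 and 8.16 against 8.04, 8.07 and 8.08, a difference of -0.25 (SE 0.098). Ccna2, cyclin A2, differed by -0.25, the mitotic kinase Cdk1 by -0.19 and Ccnb2, cyclin B2, by -0.15. Mki67, the proliferation marker, stood at 9.05 and 8.88 against 8.67, 8.88 and 8.81. Its groups overlapped through an exact tie and were apart, lower with aspirin, after quantile normalization or cyclic loess. GA+GA was the highest array for Top2a, Ccna2, Cdk1 and Mki67. Without GA+GA 6 genes were again lower, but 4 were higher and the median was -0.02. Without LG21+GA 20 were lower, with a median of -0.16. Among all 9969 filtered genes 1742 were lower and 2129 higher without GA+GA. Without LG21+GA 1356 of them were lower, against 379 with every array kept. In 2 of 9 interferon-inducible genes and 1 of 5 genes of MHC class II the groups were apart, all lower, beside 3.8% lower of all filtered genes. They were Tap1, the peptide transporter (-0.17), Irf1 (-0.11) and H2-Ab1 (-0.18). LG21+GA was the highest array for each. The lowest difference was -0.41 in the interferon list and -0.38 in the MHC list, both in genes whose groups overlapped. In these lists 2 and 1 differences were above 0.

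Cholesterol biosynthesis had 4 of 19 genes lower and 0 higher, with a median of -0.05, beside 3.8% lower of all filtered genes. Insig1, the sterol sensor that holds back this pathway, stood at 10.26 and 10.51 against 10.24, 10.19 and 9.98, a difference of -0.25 (SE 0.124). Hsd17b7 (-0.22), Fdft1 (-0.11) and Sqle (-0.06), all enzymes of the pathway, were the others. The lower genes numbered 11 without GA+GA, 11 without GA+Asp, 6 (with 2 higher) without LG21+GA, and 7 and 9 after quantile normalization and cyclic loess. Over all 9969 filtered genes 1742, 1063, 1356, 889 and 1387 were lower in the same order, against 379 in the main setting. The median of the list was -0.03 without LG21+GA and without LG21+Asp. Of 18 immediate early genes 5 were lower, against 3.8% of all filtered genes, and 2 higher, a share near the 8.68% of all. Fos (-0.08), Jun (-0.12), Atf3 (-0.11), Klf4 (-0.15) and Btg2 (-0.13) were lower, and Nr4a2 (0.06) and Dusp6 (0.10) higher. These are genes that growth factors and injury switch on within minutes.

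**Figure D4:**
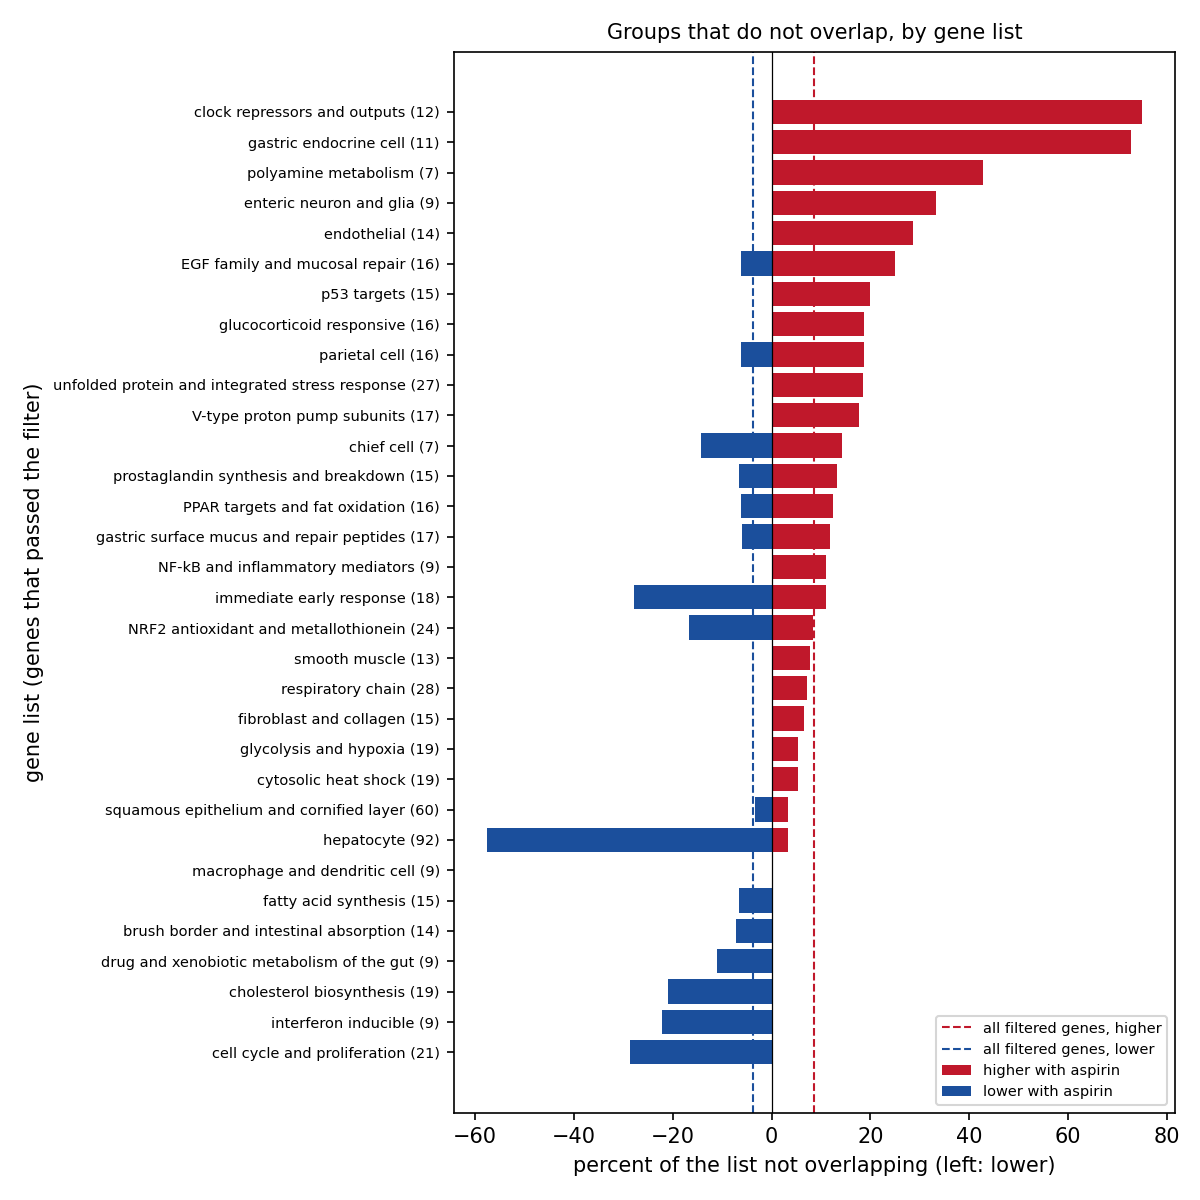
Percent of the filtered genes of each list drawn whose groups do not overlap, higher with aspirin to the right and lower to the left, with the number of filtered genes in brackets. Lists with fewer than 7 filtered genes are not drawn. Dashed lines mark all filtered genes (8.68% higher and 3.8% lower). Clock repressors and outputs (9 of 12) and gastric endocrine genes (8 of 11) reach furthest right, and the hepatocyte list (53 of 92) furthest left.

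Further lists, though not every list counted, are given beside the 8.68% higher and 3.8% lower of all filtered genes. Fatty acid synthesis had 0 of 15 higher and 1 lower, Scd1. PPAR targets and fat oxidation genes outside the programmes had 2 of 16 higher and 1 lower. Enteric neuron and glia genes had 3 of 9 higher and 0 lower, with a median of 0.04: Scn7a, named above, the synaptic protein gene Snap25 (0.08) and Uchl1 (0.04). Among 17 subunits of the vacuolar proton pump 3 were higher, with a median of 0.03, so the value of Atp6v0d2 was not shared by the rest. Of 16 parietal cell genes 3 were higher and 1 lower, each by under 0.1, and of 17 genes of surface mucus and repair peptides 2 were higher and 1 lower. A4gnt, which adds the terminal sugar of gland mucin, stood at 9.63 and 9.59 against 9.74, 9.76 and 9.70 (0.12). Many of the gastric genes lie near 13 and above, at the top of the scale. Among 7 chief cell genes Bhlha15, a factor of secretory maturation, was higher (0.21) and Cym, the milk-clotting protease, lower (-0.17). Of 16 genes of the EGF family and repair 4 were higher and 1 lower, among them Itgav, an integrin chain (0.11), beside Il33. Endothelial genes had 4 of 14 higher, none above 0.1, with Tep+Asp the highest array in all 4. Respiratory chain genes had 2 of 28 higher, heat shock genes 1 of 19, NF-kB and inflammatory genes 1 of 9, and macrophage genes 0 of 9 either way. T, B and erythroid cell lists had 0 genes past the filter.

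Below the filter 10 further genes outside the programmes were at least 1.2-fold higher and 37 lower, with levels where single probe sets are less certain. Medag, a gene of fat cell formation, stood at 6.72 and 6.61 against 7.11, 7.15 and 6.94. Chil4, a chitinase-like lectin, stood at 7.01 and 7.77 against 6.90, 5.65 and 4.95, and LG21+Asp was its lowest array. Pigr, the receptor that carries immunoglobulin A into the lumen, had 7.25 and 7.16 against 6.74, 6.91 and 6.96. Its arrays ranked as in most lower hepatocyte genes. Several others, such as Crp, Apon, Apof and Fgl1, had that order too and encode plasma proteins that liver makes. These genes were chosen for mention after their values were seen.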

How the data were processed

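The deposited values were used as the authors gave them, log2 expression per probe set. They were summarised by RMA (background correction, normalization between arrays, 1 value per probe set) with Expression Console per the labels; another Affymetrix program, the Exon Array Computational Tool, is credited in the design text. The log2 scale was inferred from the range of the deposited values, 1.32 to 13.87. Versions and a genome build are not given in the sources used here. Of 35557 probe sets 21789 named 1 gene, 1621 several and 12147 none, and 21698 matched RefSeq by gene identifier. Where a gene had several (999 genes), its brightest probe set over the 5 arrays stood for it. At least a pair of arrays was exactly tied in 63.4% of probe sets.

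Limma 3.58.1 (R 4.3.3) was fitted with lmFit and eBayes over 9969 genes, with the group as the only term and Benjamini-Hochberg adjustment. In simulated data of 9969 genes it recovered 38 of 50 genes planted at a log2 difference of 0.3, 47 at 0.6, 48 at 1 and 50 at 1.5, and called 13 of 9769 unchanged ones. The planted genes were drawn at random, and the noise was independent between genes and arrays, with the fitted variance of each gene. The median SE over filtered genes was 0.027, against 0.067 for Dbp and 0.284 for Trf. The recovery therefore does not tell whether real differences in genes with a wider spread would be called. Genes were called apart where the groups did not overlap. The number of arrays limits the precision.

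Members and gene lists were chosen with earlier results of these data known. The naming rule took the 15 largest differences each way among genes that were apart outside both programmes, genes past the limma threshold, the 5 widest gaps each way, up to 4 members of each list described, and 11 genes always named. Clone names were left out of it, and members of lists beyond 4 were added after their values were seen. Alternatives covered the filter, the normalization, probe set means, the variance model, pretreatment terms, fold limits, ties, liver genes and each array left out.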

Additional observations from a re-analysis of the deposited data

Results flagged for a closer look

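Akp3, which encodes an alkaline phosphatase of the gut lining, stood at 7.15 in GA+GA and 8.27 in GA+Asp, and at 8.52 in LG21+GA and 7.37 in LG21+Asp. Aspirin went with a difference of 1.12 after gum arabic and of -1.15 after LG21, which are -2.28 apart. It stands here because the pairs ran in opposite directions, each with 1 array a side, so the difference between them was not tested. Over the 5 arrays the groups overlapped, with a difference of -0.25 (SE 0.606). Probe sets of this family of near-identical genes cannot be assigned with certainty.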

How the results depend on the processing

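Limma called 0 genes under each alternative that kept all 5 arrays, and 0 to 82 with 1 array left out. With terms for the pretreatments in the fit it called 0, with 394 genes at an unadjusted p under 0.05. No paired analysis by replicate number was possible because the labels give none. Genes that were apart numbered, higher and lower, 865 and 379. They were 687 lower without a filter, 558 and 220 with the 75th percentile as filter, 889 lower after quantile normalization and 1387 after cyclic loess. With ties allowed, chosen after seeing the data, they were 2932 and 1594, and with a gap above the range of either group, also chosen then, 100 and 46. With 1 array left out they ran from 1153 to 3006 higher and from 525 to 1742 lower, where fewer arrays make a clear separation easier. At 1.2-fold the counts of 12 and 61 became 22 and 187 without a filter, 7 and 21 with the stricter one, 3 and 9 with the gap rule, and 13 to 40 and 65 to 95 with 1 array left out. Leaving out programme genes gave 19 lower, and further liver genes 14. At 1.1-fold they were 115 and 127, at 1.5-fold 1 and 35, and at 2-fold 0 and 22. The clock median ran from 0.0842 to 0.312 with 1 array left out and the cell cycle median from -0.160 to -0.0234, and was -0.177 with the stricter filter. The endocrine median was 0.0395 without a filter and 0.07 to 0.10 with 1 array left out. Of 442 values of 36 genes named by the rule, 441 kept their direction and side of the threshold. Akp3, which ran from -0.936 to 0.437 with 1 array left out, reversed without LG21+GA. In genes that were apart, leaving out an array cannot reverse the direction, so this count is no measure of stability. With 1 array left out Atp6v0d2 ran from 0.23 to 1.00, Il33 from 0.15 to 0.60 and Car3 from -0.59 to -0.14. Of the 36 genes all 32 that were apart stayed so under both normalizations and with probe set means. Per1 and Mki67, which overlapped through ties, came apart under both normalizations.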
